A study of Mus musculus with 6 samples.

Results

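3-qA2-617 and 13-qA5-208 are piRNA genes named after a chromosome band and not after a host gene, and 10-qB5.1-5404's name is of the same kind; by these names they belong to chromosomes 3, 13 and 10, and the last is called the chromosome 10 locus below. They are 3 of the 214 piRNA genes with reads of their own in small RNA of mouse male primordial germ cells. They were picked from the 100 piRNA genes with band names because earlier results of the same libraries had shown more reads after ionizing radiation (IR), spread over many sequences. The difference between IR and control, and the spread of the reads, therefore chose them, and both are given below as descriptions with no test. A read was assigned to a piRNA gene when every place it mapped to lay in that gene, and its copies were counted once per library. Over the 6 libraries this gave 407 reads of 3-qA2-617, 130 of the chromosome 10 locus and 209 of 13-qA5-208.

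The cells were primordial germ cells purified from male embryos at embryonic age E13.5, with 3 libraries from untreated control cells and 3 from cells exposed to IR. The labels give no dose, time after exposure, strain or genotype, and do not say whether the replicates came from separate animals, so the spread between libraries may be technical. Reads of 1 piRNA gene numbered 5889 to 9017 per library, and since each file holds only reads placed on piRNA cluster transcripts, these totals are not the depth of the libraries. None of 17 cell type markers and none of 16 piRNA pathway genes has a piRNA gene of its name among the 214, so the labelled cell type was not checked here.

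PIWI-interacting RNAs (piRNAs) are small RNAs of germ cells that guide PIWI proteins to transposon transcripts and, in fetal male germ cells, direct DNA methylation to transposons. They are cut from long single-stranded precursors transcribed from clusters, many of which hold fragments of transposons. Mature piRNAs commonly begin with U, and an A at position 10 is the mark of partners made by reciprocal (ping-pong) cutting, whose 5′ ends overlap by 10 nt.

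The most copied sequences show how thinly the reads were spread. In the lines below the first base is in capitals, and T stands for U. In 3-qA2-617, 14 sequences had 2 copies, in the chromosome 10 locus 3 and in 13-qA5-208 6, and ties were ordered by number of libraries and then by length.
3-qA2-617, 3 copies: Agtaaagatgatttctggtg
3-qA2-617, 2 copies: Aacaattctgagtcttaact
3-qA2-617, 2 copies: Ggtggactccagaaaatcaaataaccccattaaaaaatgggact
Chromosome 10 locus, 2 copies: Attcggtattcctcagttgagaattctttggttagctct
Chromosome 10 locus, 2 copies: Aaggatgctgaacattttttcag
13-qA5-208, 2 copies: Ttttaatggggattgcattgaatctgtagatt
13-qA5-208, 2 copies: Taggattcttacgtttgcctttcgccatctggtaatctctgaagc
13-qA5-208, 2 copies: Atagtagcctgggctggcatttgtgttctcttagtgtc
The first line is the only sequence of the 3 piRNA genes with 3 copies, found once each in control replicate 1, IR replicate 1 and IR replicate 2. No other sequence exceeded 2 copies.

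The reads of 3-qA2-617 comprised 391 distinct sequences, those of the chromosome 10 locus 127 and those of 13-qA5-208 203. Sequences seen in more than 1 library numbered 2 for 3-qA2-617, 1 for 13-qA5-208 and 0 for the chromosome 10 locus. Few recurred elsewhere too, as the median over the 103 piRNA genes with enough reads to be tested was 3. The most copied sequence made up 0.737% of the reads of 3-qA2-617, the lowest value among the 103. It made up 1.54% in the chromosome 10 locus and 0.957% in 13-qA5-208, against a median of 4.89% over the 103. With 2 or 3 copies of the most copied sequence, this share is set by the number of reads at the locus. Per 100 reads, 3-qA2-617 had 96.1 distinct sequences (rank 23), the chromosome 10 locus 97.7 (rank 5) and 13-qA5-208 97.1 (rank 11). The median was 87.0. Reads of 3-qA2-617 began at 347 different 5′ ends, the second highest number of the 103, but per 100 reads its 85.3 ends put it at rank 36. Per 100 reads 13-qA5-208 had 93.3 ends (rank 11) and the chromosome 10 locus 87.7 (rank 29), where the median was 72.6. The reads covered 7.49% of the positions of 3-qA2-617 up to its last read, 10.5% of those of the chromosome 10 locus and 9.76% of those of 13-qA5-208.

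3-qA2-617 had 49, 28 and 45 reads in control replicates 1 to 3 and 118, 104 and 63 in IR replicates 1 to 3. Scaled by the library's effective size to the usual unit of CPM, these were 6273, 4622 and 5575 CPM in control and 13326, 11244 and 10112 CPM in IR. Every IR library lay above every control library. The mean was 5490 ± 829 CPM in control and 11561 ± 1630 CPM in IR (SD, n = 3), a log2 fold change of 1.07 (SE 0.23), rank 4 of the 103 from the highest. In bulk samples fewer cells of a type and less RNA per cell cannot be told apart, and this holds for every difference between the groups given here.

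10-qB5.1-5404's reads numbered 18, 8 and 17 in control and 30, 32 and 25 in IR. Its levels were 2304, 1321 and 2106 CPM in control and 3388, 3460 and 4013 CPM in IR, again with no overlap. The mean went from 1910 ± 520 to 3620 ± 342 CPM (SD, n = 3), a log2 fold change of 0.89 (SE 0.29). A count of 3 reads was worth 333 to 509 CPM, so single reads weigh heavily at this locus. All 9 of its reads longer than 50 nt, the upper bound of the size selection, were in IR replicate 2, and without such reads the log2 fold change was 0.76.

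13-qA5-208 had 23, 12 and 36 reads in control and 61, 39 and 38 in IR. Its levels were 2944, 1981 and 4460 CPM in control and 6889, 4217 and 6099 CPM in IR. Here the groups overlapped, with control replicate 3 above IR replicate 2. The mean was 3128 ± 1250 CPM in control and 5735 ± 1373 CPM in IR (SD, n = 3), a log2 fold change of 0.84 (SE 0.33).

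**Figure D1:**
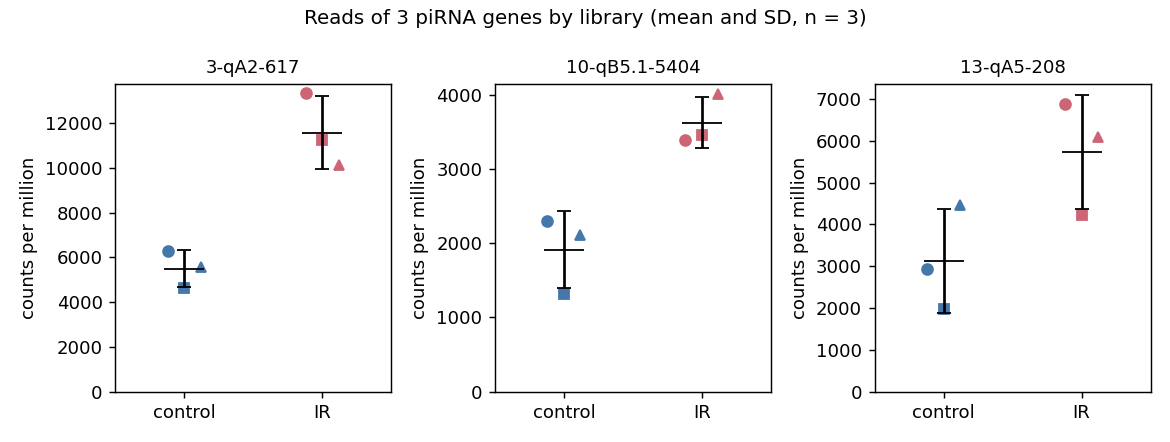
Level of each piRNA gene in each library, in CPM (vertical axis, from 0), for control and IR libraries. Circles, squares and triangles are replicates 1, 2 and 3, horizontal lines are means and bars are SD (n = 3); the groups are apart for 3-qA2-617 and the chromosome 10 locus and overlap for 13-qA5-208.

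Across the 103 piRNA genes tested, the median log2 fold change was 0.04. Of these, 4 (3.88%) were higher in IR at an adjusted p under 0.05 in edgeR's quasi-likelihood test, 3-qA2-617 among them and the chromosome 10 locus and 13-qA5-208 not. Over the alternative fits 0 to 2 of the 3 were past that threshold. Every IR library exceeded every control library in 14 of the 103 (13.6%), 3-qA2-617 and the chromosome 10 locus included. Since this contrast chose the 3 piRNA genes, these counts are no test of them and nothing is read from them, here or by size class below.

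By size, 3-qA2-617 was higher in IR in all 3 classes examined. It had 14, 10 and 13 control reads of 20 to 23 nt against 28, 43 and 15 in IR. In the piRNA size range of 24 to 32 nt it had 17, 7 and 15 control reads against 44, 27 and 23. At 33 nt and longer it had 18, 11 and 17 against 46, 34 and 25. In the fits made within each class, where CPM refers to reads of that class alone, the groups did not overlap in any of them. The log2 fold changes were 0.95 (SE 0.35) at 20 to 23 nt, 1.38 (SE 0.34) at 24 to 32 nt and 1.18 (SE 0.32) at 33 nt and longer. Of the loci tested, 6% of 50, 0% of 28 and 4.17% of 24 were past the threshold and higher in IR in these classes. For the shortest class the share of loci with groups apart was 14%, for the middle class 17.9% and for the longest 8.33%.

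13-qA5-208 held the longer reads, with 49.3% of its reads at 33 nt or more, the second highest share of the 103, whose median was 23.4%. It had 4, 6 and 8 control reads of 24 to 32 nt against 24, 11 and 11 in IR, a log2 fold change of 1.44 (SE 0.49) with the groups apart. In this class it passed the filter on low counts only through its IR libraries, so nothing is read from the groups being apart there. At 33 nt and longer it had 12, 4 and 21 control reads against 31, 19 and 16 in IR. There the groups overlapped, and the log2 fold change was 0.84 (SE 0.39), 0.45 without control replicate 2 and 1.34 without control replicate 3. Its reads of 20 to 23 nt, 16 in control and 26 in IR, were too few for the fit.

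10-qB5.1-5404's reads were too few for a fit in any class. It had 5, 0 and 9 control reads of 20 to 23 nt against 9, 8 and 11 in IR. Of 24 to 32 nt it had 10, 5 and 3 against 12, 9 and 7, and of 33 nt and longer 3, 3 and 5 against 9, 15 and 7. Scaled by the size of the whole library, the groups were apart only in the longest class, which includes the 9 reads over 50 nt of IR replicate 2. The share of all loci with groups apart under this scaling was not counted, so nothing is read from it.

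**Figure D2:**
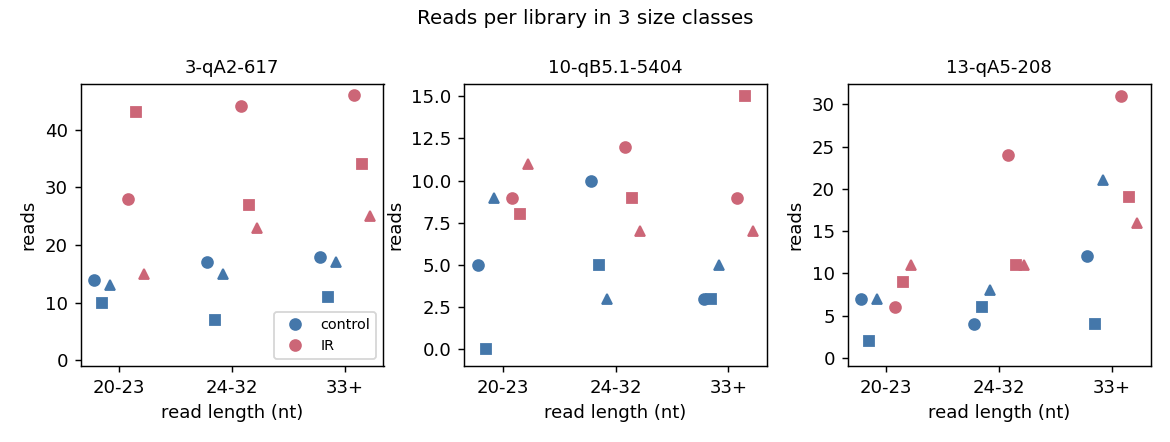
Number of reads per library (vertical axis) in the size classes 20 to 23, 24 to 32 and 33 nt and longer (horizontal axis), for control and IR libraries. Circles, squares and triangles are replicates 1, 2 and 3; 13-qA5-208 has more reads in the longest class than in either of the others, and the chromosome 10 locus has at most 15 reads in any class.

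Position along the transcript was compared over 10 segments of equal length, up to the last read, with positions counted from 1 on the cluster transcript. Chromosome coordinates of these transcripts were not used here. Segment 9 of 3-qA2-617, positions 54391 to 61188, held 56.0% of its reads, 54.9% in control and 56.5% in IR. It had 26, 15 and 26 control reads and 72, 54 and 35 IR reads. CPM values were 2.17 times as high in IR as in control within it and 2.03 times outside it, so the excess in IR was shared by the crowded stretch and the rest of the transcript. The other segments of 3-qA2-617 each held from 1.72% to 11.7% of the reads.

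Reads of 13-qA5-208 lay almost wholly in a middle stretch. Segments 3, 4 and 5, positions 6339 to 15844, held 98, 49 and 48 of the 209 reads. Segment 3 had 12, 4 and 15 control reads and 28, 21 and 18 IR reads. Segment 5 had 6, 5 and 9 control reads and 14, 7 and 7 IR reads.

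10-qB5.1-5404's reads gathered in segment 4 (29.2%), segment 10 (25.4%) and segment 5 (18.5%). Segment 5, positions 7285 to 9106, had 1, 0 and 1 control reads and 9, 5 and 8 IR reads. Segment 6, positions 9107 to 10927, went the other way, with 2, 2 and 4 control reads and 1, 2 and 1 IR reads. These 2 stretches were singled out after their values were seen. Of the 22 IR reads in segment 5, 17 were antisense to the cluster transcript and 16 began with A. Part of them formed a stack, shown here because it holds antisense reads of all 3 IR libraries and none of control, with the first base in capitals.
8709 to 8747, IR replicate 2: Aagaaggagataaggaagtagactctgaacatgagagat
8710 to 8752, IR replicate 1: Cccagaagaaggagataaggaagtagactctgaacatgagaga
8712 to 8752, IR replicate 3: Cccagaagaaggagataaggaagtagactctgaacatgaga
8718 to 8742, IR replicate 2: Ggagataaggaagtagactctgaaa
8721 to 8758, IR replicate 1: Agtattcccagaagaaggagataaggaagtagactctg
8727 to 8749, IR replicate 1: Agaagaaggagataaggaagtag

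**Figure D3:**
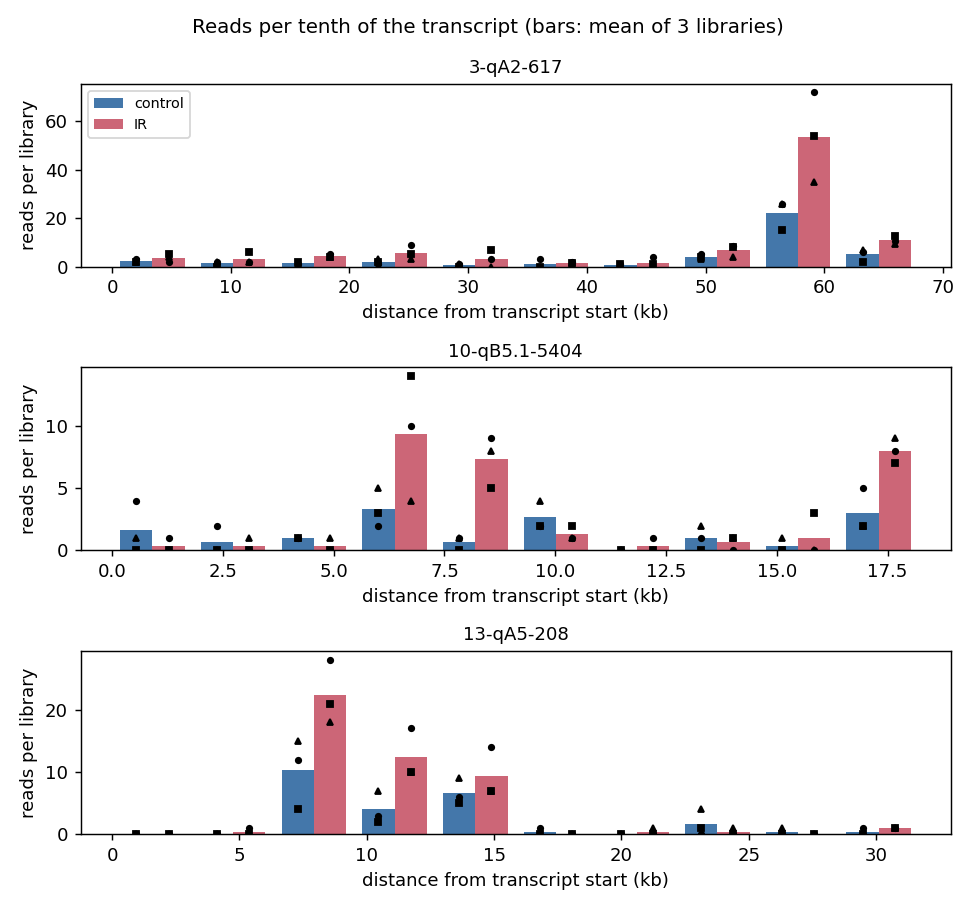
Reads per library (vertical axis) in each of 10 equal segments of the transcript, placed by distance from the transcript start in kb (horizontal axis); bars are means of 3 libraries, and circles, squares and triangles are replicates 1, 2 and 3. Segment 9 of 3-qA2-617 and segments 3 to 5 of 13-qA5-208 hold most of the reads, and segment 5 of the chromosome 10 locus has 2 control and 22 IR reads.

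Both strands of the cluster transcripts gave reads. Sense reads made up 59.8% for 3-qA2-617, 40.0% for the chromosome 10 locus and 36.4% for 13-qA5-208, and the median over the 103 piRNA genes was 74.7%. The strand, first base, base at position 10 and size were not used to choose the piRNA genes, so each share was compared with that of all other piRNA genes in the same library, by an exact two-sided sign-flip permutation test over libraries. None of the 12 comparisons passed after Benjamini-Hochberg adjustment, which could hardly be otherwise in a design of this size. The smallest p that 6 libraries allow is 0.03125, and for the chromosome 10 locus, which had 10 or more reads in 5 libraries, it is 0.0625. An adjusted p under 0.05 would have needed all 8 comparisons with 6 libraries to reach 0.03125, and 3 did, so these tests do not show that the shares were alike.

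The sense share of 13-qA5-208 averaged 35.4% against 71.1% for the others, lower by 35.7 ± 10.3 percentage points (SD, n = 6) and lower in 6 of 6 libraries (exact permutation p = 0.03125, adjusted p = 0.125). For 3-qA2-617 it averaged 59.7% against 71.0%, a difference of -11.3 ± 2.05 points, lower in 6 of 6 (exact permutation p = 0.03125, adjusted p = 0.125). For the chromosome 10 locus the difference was -27.9 ± 16.1 points, lower in 5 of 5 (exact permutation p = 0.0625, adjusted p = 0.15). Compared with the other band-named piRNA genes instead, the difference was -6.45 points for 13-qA5-208, 18.3 for 3-qA2-617 and 0.97 for the chromosome 10 locus. The direction for 3-qA2-617 and the chromosome 10 locus therefore depends on which piRNA genes are taken as the comparison. In both comparisons the reads of the other piRNA genes were pooled, so loci with many reads weighed most. For example, pi-D730040F13Rik had 16484 reads, 99.7% of them sense, and the band-named 14-qA3-2286 had 2481, 5.72% of them sense. Each of the 3 piRNA genes was below the median by locus, 74.7% over the 103. A median over the band-named piRNA genes alone was not taken.

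A first U was found in 36.6% of reads of 3-qA2-617, 24.6% of the chromosome 10 locus and 39.7% of 13-qA5-208, and the median over the 103 was 32.4%. Only for 13-qA5-208 was it on the same side of the other piRNA genes in all 6 libraries, higher by 5.37 ± 4.32 points (exact permutation p = 0.03125, adjusted p = 0.125). Against the other band-named piRNA genes it was lower, by -4.94 points. Loci with many reads weighed most here too, such as the band-named 14-qA3-2286 with 85.5% first U in 2481 reads. Reads with A at position 10 made up 30.9% ± 7.80 of 3-qA2-617 against 21.3% ± 0.541 of the others (SD, n = 6; exact permutation p = 0.0625, adjusted p = 0.15), higher in 5 of 6 libraries. For the chromosome 10 locus and 13-qA5-208 these reads differed from the others by 6.64 ± 9.73 and -1.35 ± 9.96 points. Reads of 24 to 32 nt, the piRNA size range, made up 32.7%, 35.4% and 30.6% of the 3 piRNA genes, and a first U was found in 36.1%, 30.4% and 37.5% of those.

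Opposite-strand pairs with the 10-nt overlap of ping-pong partners were few. Among pairs of 3-qA2-617 whose 5′ ends overlapped by 1 to 20 nt, 3 of 110 overlapped by exactly 10 nt, where the median over the other overlaps was 6. The counts were 1 of 18 for the chromosome 10 locus and 0 of 34 for 13-qA5-208. At these counts no excess at 10 nt was detectable.

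The first base of 10-qB5.1-5404's reads differed between the groups. Reads beginning with A were 7 of 18, 2 of 8 and 3 of 17 in control and 19 of 30, 15 of 32 and 16 of 25 in IR, and as shares the groups did not overlap. Sense reads made up 50.0%, 37.5% and 70.6% in control and 26.7%, 31.3% and 40.0% in IR, and here the groups overlapped. Without its 9 antisense reads over 50 nt, IR replicate 2 had 43.5% sense reads. In all, 12 of 43 control reads and 50 of 87 IR reads began with A. These values come from the same contrast that chose the locus and from as few as 8 reads per library. Of the reads beginning with A, 16 of 50 in IR and none of 12 in control lay at positions 7285 to 9106. That stretch was singled out above after its values were seen. How many other piRNA genes or other first bases had shares with the groups apart was not counted, so nothing is read from it. For 3-qA2-617, 36.1% of control and 30.9% of IR reads began with A, and for 13-qA5-208 22.5% and 26.1%.

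**Figure D4:**
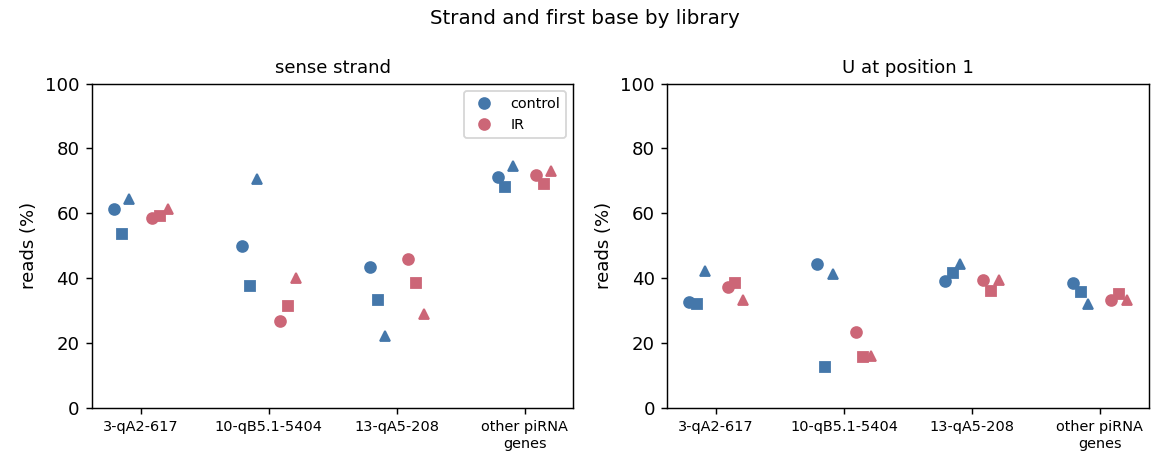
Share of reads in percent (vertical axes) on the sense strand (left) and with U at position 1 (right), for each piRNA gene and for all other piRNA genes together, by library. Circles, squares and triangles are replicates 1, 2 and 3; 13-qA5-208 lies below the other piRNA genes in sense share in every library, and the first-U share overlaps between piRNA genes.

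Most reads placed on these transcripts were not theirs alone. Reads of their own were 19.9% of all reads placed on 3-qA2-617, 32.7% on the chromosome 10 locus and 12.3% on 13-qA5-208, where the median over the 103 was 50.7%. The 103 include piRNA genes named after host genes. Among the other band-named piRNA genes tested the share ran from 7.35% (10-qC1-2617) to 100% (1-qE2.3-2), so low shares are not particular to these 3. A median over the band-named ones alone was not taken. The sequences shared with other piRNA genes were shared among a median of 4, 5 and 4 piRNA genes. 3-qA2-617 and 13-qA5-208 had 885 sequences in common, 45.5% of all sequences on the former and 54.6% of those on the latter, so their shared reads are not independent of each other. 3-qA2-617 and the chromosome 10 locus had 125 in common (6.43% and 33.9%).

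The shared reads were not counted in the levels above. On 3-qA2-617 they made up 1.89%, 1.63% and 2.45% of the file in control and 3.30%, 3.50% and 3.66% in IR, with the groups apart. On 13-qA5-208 they made up 1.85%, 1.36% and 2.51% in control and 3.14%, 3.19% and 2.79% in IR, also apart. On the chromosome 10 locus the groups overlapped, at 0.378%, 0.324% and 0.536% in control and 0.523%, 0.461% and 0.449% in IR. How many other piRNA genes had shared reads with the groups apart was not counted. The values of 3-qA2-617 and 13-qA5-208 rest in part on the same reads, so nothing is read from either being apart. Of the reads that 3-qA2-617 shares with 13-qA5-208, 41.0% fell in segment 3 of 3-qA2-617, where 17 of its own reads lay, and 29.4% in segment 9.

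Where reads overlapped on the transcript, they did not always agree in sequence. Positions covered by 2 or more sequences differed in base at 213 of 2076 positions of 3-qA2-617 (10.3%), 57 of 818 of the chromosome 10 locus (6.97%) and 74 of 1552 of 13-qA5-208 (4.77%). Over 96 other piRNA genes the median was 8.39%. Reads placed at 1 position may thus carry different sequences, and the mismatches allowed in mapping are not known here. The deepest stacks among reads of up to 50 nt without a run of 12 or more A or T show this. Bases are in capitals where a read differs from the most frequent base of such reads at that position.
3-qA2-617, 57681 to 57713, sense: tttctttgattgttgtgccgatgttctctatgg
3-qA2-617, 57681 to 57713, sense: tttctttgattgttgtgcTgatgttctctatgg
3-qA2-617, 57682 to 57717, sense: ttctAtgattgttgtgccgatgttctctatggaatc
3-qA2-617, 57678 to 57718, antisense: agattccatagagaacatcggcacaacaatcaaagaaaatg
13-qA5-208, 9203 to 9238, sense: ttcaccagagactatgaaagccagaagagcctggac
13-qA5-208, 9195 to 9223, antisense: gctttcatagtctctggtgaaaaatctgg
13-qA5-208, 9203 to 9245, antisense: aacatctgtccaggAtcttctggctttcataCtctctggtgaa
The stack of 3-qA2-617 at position 57688 held 26 sequences, 22 sense and 4 antisense, 11 of them with a differing base. They came from control libraries in 8 cases and from IR libraries in 18. The stack of 13-qA5-208 at position 9210 held 11 sequences, 6 sense and 5 antisense, 3 of them with a differing base. That of the chromosome 10 locus, at position 6632, held 7 sequences of this kind, all sense, 4 of them with a differing base. Antisense reads over 50 nt of IR replicate 2 also covered position 6632 and were left out of the stack.

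Reads with a run of 12 or more A or T made up 4.91% of 3-qA2-617, 9 in control and 11 in IR. The example below shares its 5′ end, at position 58891, with 5 others that differ from one another in the bases before the run.
3-qA2-617, 58891, antisense: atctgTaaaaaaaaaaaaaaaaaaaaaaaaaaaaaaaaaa

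Exact matches to annotated mouse transcripts (GENCODE M21, the same mm10 build) gave the reads' resemblance to other RNAs. Of the distinct sequences of 13-qA5-208, 61.6% matched a transcript, against 42.2% for 3-qA2-617, 26.8% for the chromosome 10 locus and 37.2% for the other tested piRNA genes together. Transcripts of 5 or more genes were matched by 42.9% of the sequences of 13-qA5-208, the highest share of the 103. The same was found for 24.8% of 3-qA2-617 (rank 9), 7.87% of the chromosome 10 locus (rank 29) and 6.42% of the other piRNA genes. Most matched sequences of 13-qA5-208, 86 of 125, matched some transcripts in sense and others in antisense. No repeat annotation was used here, so the reads are not assigned to repeat families. Annotated structured RNAs were matched by 2 sequences of 3-qA2-617 and 1 each of the others.

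Split by that match, the widely matched reads of 13-qA5-208 numbered 8, 3 and 13 in control and 29, 22 and 16 in IR. Their mean was 1043 ± 558 CPM in control and 2741 ± 472 CPM in IR (SD, n = 3), a ratio of 2.63. Its reads that matched 1 to 4 genes numbered 5, 4 and 10 in control and 9, 6 and 6 in IR, a ratio of 1.04, and its unmatched reads numbered 10, 5 and 13 in control and 23, 11 and 16 in IR, a ratio of 1.71. For the chromosome 10 locus the ratios were 2.88 for reads that matched 5 or more genes (3 in control and 8 in IR), 1.11 for 1 to 4 genes and 2.09 for unmatched reads. For 3-qA2-617 the ratios were 2.29 for reads that matched 5 or more genes, 2.23 for 1 to 4 genes and 2.0 for unmatched reads. The difference between these ratios was not tested, and the limit of 5 genes was chosen after the data were seen.

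In 10-qB5.1-5404's segment 4, between positions 6521 and 6771, 7 reads matched Ube2n in sense and 3 in antisense. Ube2n encodes a ubiquitin-conjugating enzyme that builds lysine-linked ubiquitin chains in DNA repair and immune signalling, and lies on chromosome 10, 95515145 to 95545657, plus strand (mm10). All 7 sense reads matched the pseudogene Ube2n-ps1 equally, so their origin cannot be told apart. The examples printed below matched 4, 5 and 4 annotated genes, in the order given. The sense reads were 4 in control and 3 in IR. The 3 antisense reads were 84 to 85 nt long and all in IR replicate 2, and they belong to the 9 long reads of that library, which lay on the antisense strand between positions 6520 and 6717. Over all piRNA genes, reads over 50 nt numbered 86 in IR replicate 2 and 5 to 16 in the other libraries. Examples of the sense reads are given because Ube2n lies on the chromosome that the name of the locus gives. The band in that name was not compared with the position of Ube2n.
6626 to 6657, control replicate 1: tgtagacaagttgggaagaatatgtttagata
6629 to 6656, control replicate 1: agacaagttgggaagaatatgtttagat
6623 to 6652, IR replicate 3: taatgtagacaagttgggaagaatatgttt

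Levels were also compared with those of the other 102 piRNA genes tested, by the Pearson correlation of log2 CPM over the 6 libraries, which share the normalization and the split into groups. It is a description of 6 points. 3-qA2-617 was most like pi-Zmat3 (r = 0.975) and pi-Tfcp2l1 (r = 0.941). The chromosome 10 locus was most like pi-Foxo3 (r = 0.995) and pi-Dnmt3a (r = 0.990), and 13-qA5-208 most like pi-Nsd1 (r = 0.980) and pi-Ankrd11 (r = 0.974). Among themselves the 3 piRNA genes gave r of 0.913 for 3-qA2-617 with the chromosome 10 locus, 0.821 for 3-qA2-617 with 13-qA5-208 and 0.864 for the chromosome 10 locus with 13-qA5-208.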

How the data were processed

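Small RNA of 18 to 50 nt was sequenced from 3 control and 3 IR libraries with the NEBNext small RNA kit, per the labels' protocols. The authors deposited read counts: each line gives a sequence, its copies, its strand, its number of mapped places and 1 place on a piRNA cluster transcript. The deposited number of mapped places, an integer, equalled each sequence's number of lines. The build was mm10, per the submitters' processing notes, and neither the aligner nor its mismatches are given in the sources used here. Reads were 20 to 85 nt long.

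The 3 piRNA genes, the lists and the tests were chosen with earlier results of these data known. Reads with every place inside a single piRNA gene were counted per locus and compared with edgeR 4.0.16 (R 4.3.3): TMM, filterByExpr, quasi-likelihood F-test, Benjamini-Hochberg adjustment and a threshold of 0.05. Library sizes were first recomputed after the filter and then kept unchanged. Both were run, and the second was retained, with both outputs seen, because it follows the earlier processing of these data. SE was taken as log2 fold change over √F. Named are the 3 piRNA genes, the 2 most similar loci of each, and annotated genes matched by their reads. Sequences shown are the most copied, except 1 of over 50 nt that repeats a stretch described in the text, and examples of shared 5′ ends or stacks, the latter chosen after the data were seen, as were the split by number of matched genes, the reads over 50 nt and the measure of base agreement. A genome match was foreseen but no genome sequence was used here. DESeq2 1.42.0, other filters and other read sets were alternatives. In data simulated 20 times on the 103 loci, all loci had a common dispersion and 21 were changed, up or down. There the test found 40.5% of the 2-fold and 86.5% of the 4-fold changes, and 4.73% of its calls were false. Real loci may differ in dispersion, so these rates need not hold for them. No pair of libraries of a group agreed within counting noise (chi-square p at most 1.078e-08). Other software was Python 3.11.15 with pandas 2.3.3, scipy 1.17.1, numpy 2.4.6 and matplotlib 3.10.9.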

Additional observations from a re-analysis of the deposited data

How the results depend on the processing

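The log2 fold changes of the 3 piRNA genes over all sizes stayed positive in all alternatives in which they were tested, from 0.87 to 1.17 for 3-qA2-617, 0.69 to 1.44 for the chromosome 10 locus and 0.61 to 1.23 for 13-qA5-208; the value of 1.44 was with reads of 1 mapped place, where 3-qA2-617 and 13-qA5-208 had too few such reads to be tested. With sense reads only, the chromosome 10 locus had too few. With library sizes recomputed after the filter, an alternative chosen after seeing the data, the 24 to 32 nt values were 1.30 for 3-qA2-617 and 1.34 for 13-qA5-208. The count of loci past the threshold, 8, was 5 with DESeq2, 5 with reads of 1 mapped place 3 with distinct sequences counted once, 12 with no filter on low counts and 12 with all reads divided by mapped places. Of the 3 piRNA genes, chosen on this contrast, 3-qA2-617 was past it with all libraries, none with DESeq2 or on omitting control replicate 2 or either of IR replicates 1 and 2, 13-qA5-208 in addition without control replicate 3, and the chromosome 10 locus with reads of 1 mapped place. It ranged from 3 to 15 with 1 library left out: 4 and 15 on omitting control replicates 2 and 3, and 3, 3 and 5 on omitting IR replicates 1, 2 and 3. By size, leaving out 1 library in turn gave 4 to 7 loci at 20 to 23 nt (8 with all libraries), 0 to 3 at 24 to 32 nt (0 in edgeR with all, and 5 at an unadjusted p under 0.05) and 0 at 33 nt and longer (1 with all). The replicate number as a block gave 7 loci over all sizes, 1 at 24 to 32 nt (3-qA2-617, which was not past it without the block) and 2 at 33 nt and longer. No pairing of the libraries by number was seen: same-number correlations were -0.167, 0.109 and 0.123, and 2 of 6 libraries correlated best with their own number. Values from so few libraries cannot exclude a pairing. Against other band-named piRNA genes the first-U difference was -9.05 points for 3-qA2-617 and -4.94 for 13-qA5-208, the 24 to 32 nt difference 4.81, 6.39 and 3.6 for 3-qA2-617, the chromosome 10 locus and 13-qA5-208, the sense difference 18.3 for 3-qA2-617 and 0.97 for the chromosome 10 locus, and the A-at-position-10 difference 0.477 for 13-qA5-208. With reads of 24 to 32 nt only, which left 2 libraries with enough reads for the chromosome 10 locus and 3 for 13-qA5-208, the first-U difference of the former was 10.2 and the A-at-position-10 differences were -4.66 and 9.36. Leaving out 1 library in turn, the first-U difference of 3-qA2-617 ranged from -0.388 to 2.83, the 24 to 32 nt difference of the chromosome 10 locus from -6.92 to 2.33, and the A-at-position-10 difference of 13-qA5-208 from -4.53 to 0.850. The cause of these changes was not tested. With 8 to 118 reads of a piRNA gene per library, shares move by whole percentage points with single reads.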
